A study of Mus musculus with 2 samples.

Results

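The genes described here are Trp53, which encodes the tumour suppressor p53, and 9 genes known as its transcriptional targets: Cdkn1a, Mdm2, Ccng1, Trp53inp1, Bbc3, Pmaip1, Bax, Phlda3 and Zmat3. They were selected by symbol from the feature tables, which hold 55415 features, and all 10 were found. Trp53 itself is not one of the targets and is given as the gene of the factor. Transcripts had been counted in single mESC, mouse embryonic stem cells, which are cultured cells able to form every embryonic lineage. There was 1 library for cells labelled MERVL GFP positive, and 1 for those labelled negative. The cells of both libraries came from one engineered line, in which the promoter of the endogenous retrovirus MERVL drives GFP to mark a state resembling the 2-cell embryo and a histone fusion, H2B-mIFP, serves to follow cells. No other treatment or genotype difference is given, the number of clones is not stated, and neither is the way the cells were separated by GFP. Because the labels give each library its own batch, batch and reporter state cannot be told apart, and with 1 library per group no test of the groups was possible.

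The factor p53 is held low in unstressed cells by Mdm2, a ubiquitin ligase whose own gene p53 activates, and it accumulates after DNA damage and other stresses. Its targets include a cyclin-dependent kinase inhibitor that stops the cell cycle, members of the Bcl2 family that open the mitochondrial outer membrane during apoptosis, and genes of survival signalling and RNA turnover. In mouse embryonic stem cells p53 protein is abundant, and p53 is known to act there on differentiation as well as on damage responses.

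Promoter sequences are shown first, to give the p53-like sequence elements next to the start sites. Response elements of p53 can also lie in introns or further upstream, as that of Mdm2 in its first intron, and such regions were not searched. RefSeq promoter windows of 300 bases (250 before and 50 after a start site, GRCm38.p6, the patch release of the mm10 build) were found for 7 of the 10 genes, in 10 windows. Both strands were searched for the p53 half-site, a stretch of 10 bases, and for the full site, 2 adjoining half-sites of 20 bases with at most 1 base off. Of all 32851 windows in the table, 8.36% held a half-site and 0.0883% held such a full site. Full sites were found for 2 of the 7 genes, Cdkn1a and Ccng1, and their windows are printed with the full site in capitals. Both sites had 1 base off: an exact full site was found in 0 of the 7 genes and in 3 of all 32851 windows.
Cdkn1a, chr17:29090729-29091028, plus strand: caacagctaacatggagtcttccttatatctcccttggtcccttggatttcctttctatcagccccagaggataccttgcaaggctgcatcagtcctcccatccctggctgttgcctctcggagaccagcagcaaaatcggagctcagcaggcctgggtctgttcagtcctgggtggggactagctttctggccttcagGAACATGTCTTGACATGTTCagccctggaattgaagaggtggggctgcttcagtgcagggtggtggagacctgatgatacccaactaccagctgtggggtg
Ccng1, chr11:40755237-40755536, minus strand: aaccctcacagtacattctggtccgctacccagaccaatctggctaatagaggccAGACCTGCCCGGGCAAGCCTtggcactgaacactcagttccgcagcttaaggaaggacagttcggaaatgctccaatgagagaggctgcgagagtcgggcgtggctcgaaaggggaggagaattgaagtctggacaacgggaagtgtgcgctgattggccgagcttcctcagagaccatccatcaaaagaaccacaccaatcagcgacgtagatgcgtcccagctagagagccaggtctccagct
The Cdkn1a full site began 51 bases before the start at 29090979, 1 of 5 annotated transcript starts of the gene. The window also held a separate half-site, in lower case there, which began 73 bases before that start. The other Cdkn1a window in the table, for the start 2790 bases further down, held no match. The Ccng1 full site began 195 bases before the start. Mdm2, Bax and Trp53 held half-sites only, and for these the 10 bases are shown in capitals with 10 bases on each side.
Mdm2, chr10:117710925-117710954, minus strand: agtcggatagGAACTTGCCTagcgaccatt
Bax, chr7:45467080-45467109, minus strand: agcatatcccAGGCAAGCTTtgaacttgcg
Trp53, chr11:69580274-69580303, plus strand: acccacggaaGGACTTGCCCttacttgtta
These began 186, 201 and 75 bases before the respective start. The windows of Bbc3 and Phlda3 held no such letters, and Trp53inp1, Pmaip1 and Zmat3 had no window in the table. A match is a description of the sequence and not evidence of binding.

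After removal of 7 low-quality barcodes, 4596 cells of the positive library (median 29554.5 unique molecular identifiers, UMIs, per cell) and 3832 cells of the negative library (median 39099.5) were used. GFP stood at 205 CPM (UMIs of the gene per 1000000 UMIs) in the positive and 0.454 CPM in the negative library, and the Zscan4 family, genes of the 2-cell-like state, at 483 and 0.812 CPM. All 10 pluripotency markers were at 10 CPM or more in both libraries. Several other features differed between the libraries: the median mitochondrial share was 2.56% in the positive and 1.60% in the negative library, the 20 S-phase genes summed to 2130 and 2443 CPM, the 20 G2/M genes to 4063 and 3174 CPM, and the 19 primitive endoderm markers to 1106 and 467 CPM, with only Ttr at 0 and only in the negative library. The 10 trophoblast markers summed to 41.5 and 51.4 CPM (Prl3d1 at 0 in both, Tpbpa at 0 in the positive library) and the 10 fibroblast markers to 22.4 and 8.13 CPM (Col3a1 and Postn at 0 in the negative library). The part of these differences in the values of the p53 genes was not tested, beyond the restricted sets of cells given with the single genes. All intervals are 95% and cover counting error of the summed UMIs only, not the spread between cultures, of which there was 1 per group, or between cells.

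Between the libraries the targets did not move together: Pmaip1, Ccng1, Trp53inp1 and Mdm2 were higher in the GFP-positive library, Bax and Bbc3 were lower, and Cdkn1a and Zmat3 differed little. A difference of at least 2-fold on the log2(CPM + 1) scale was used as the size rule, for genes with at least 10 CPM in one group and 50 UMIs in all. By this rule 1 of the 10 genes, Pmaip1, was higher and 0 were lower. Of the 8042 genes tested, 7.01% were higher and 0.995% were lower. At 1.5-fold, 4 of 10 were higher and 2 of 10 were lower, beside 17.6% and 4.89% of all genes tested. The median log2 ratio was 0.28 over the 10 genes and 0.14 over all genes tested, with single genes from -0.79 to 1.92. With TMM scaling both medians shifted, to -0.14 over all genes and to -0.0050 over the 10 genes, and the calls over all genes went from 564 higher and 80 lower to 378 higher and 260 lower (median-of-ratios scaling gave 380 and 258). Under both scalings Bbc3 was past 2-fold lower as well (log2 -1.07 with TMM and -1.06 with median of ratios), and at 1.5-fold 2 of the 10 genes were higher and 3 lower. The shares of all genes at 1.5-fold given above are by CPM, and none is given for these scalings.

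**Figure D1:**
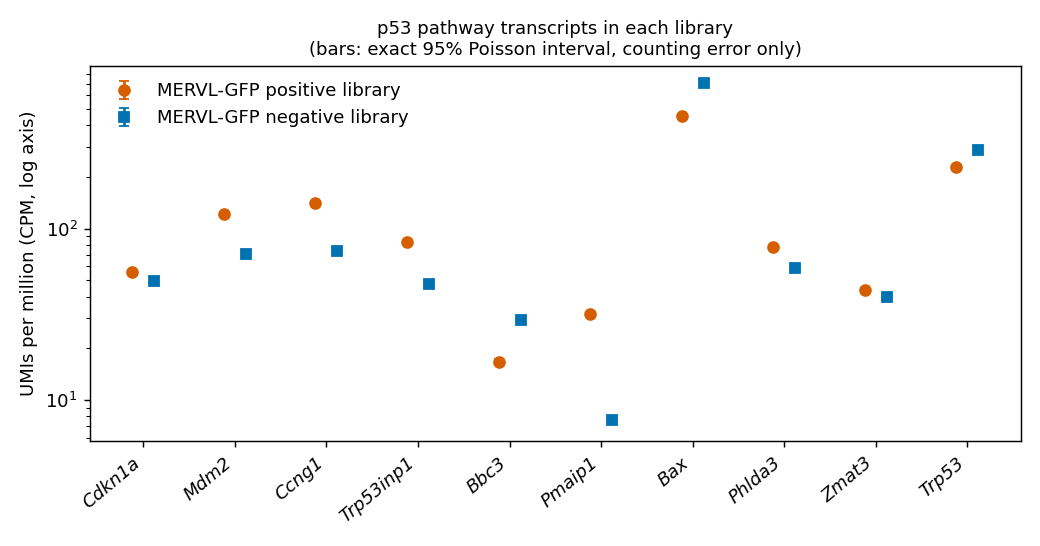
Levels of the 10 genes in each library, in CPM on a log axis, with 95% counting intervals. The points of the GFP-positive library lie above those of the negative library for 7 genes, by the widest margin for Pmaip1 (31.6 against 7.61 CPM), and below for Trp53, Bax and Bbc3. The order of Cdkn1a and Zmat3 flips under TMM and median-of-ratios scaling.

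The gene of the factor, Trp53 (chr11:69580359-69591873, plus strand), was measured at 228 CPM (226 to 231) in GFP-positive and at 286 CPM (284 to 289) in GFP-negative cells, for a ratio of 0.797 (0.786 to 0.809). Its level was lower in the GFP-positive library under all 5 scalings tried, with a log2 ratio of -0.33 by CPM and of -0.62 with TMM and median of ratios. These are transcript levels, and p53 protein, which is controlled largely by degradation, was not measured. Mdm2 (chr10:117688875-117710758, minus strand), the ligase that degrades p53, was at 122 CPM (120.0 to 124) against 70.6 CPM (69.3 to 71.98), 1.72-fold higher (1.68 to 1.77).

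Among the cell cycle genes, Cdkn1a (chr17:29090976-29100727, plus strand), which encodes the kinase inhibitor p21, was at 56.0 CPM (54.7 to 57.2) in GFP-positive and at 49.7 CPM (48.6 to 50.8) in GFP-negative cells. The ratio of 1.13 (1.09 to 1.16) depended on the scaling, with log2 ratios of 0.17 by CPM and -0.12 by TMM or median of ratios. Ccng1 (chr11:40748552-40755311, minus strand), which encodes cyclin G1, was at 141 CPM (139 to 143) against 73.9 CPM (72.5 to 75.2), 1.91-fold higher (1.86 to 1.95). Its log2 ratio of 0.92 was 0.63 with TMM and median of ratios, and by CPM 8.08% of the genes tested had one as high. The genes with a full promoter site thus differed between the libraries by quite unequal amounts. Trp53inp1 (chr4:11156431-11174379, plus strand), a nuclear protein that takes part in p53-dependent stress responses and autophagy, was at 83.3 CPM (81.7 to 84.8) against 47.3 CPM (46.2 to 48.4), 1.76-fold higher (1.71 to 1.81).

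The apoptosis genes went in opposite directions. Pmaip1 (chr18:66458533-66465565, plus strand), which encodes the BH3-only protein NOXA, was at 31.6 CPM (30.6 to 32.5; 4367 UMIs) in GFP-positive and at 7.61 CPM (7.19 to 8.06; 1191 UMIs) in GFP-negative cells, which is 4.15-fold higher (3.89 to 4.42). Of the genes tested, 3.17% had a log2 ratio as high. Bbc3 (chr7:16308393-16318205, plus strand), which encodes the BH3-only protein PUMA, was at 16.6 CPM (15.9 to 17.3) against 29.3 CPM (28.5 to 30.2), a ratio of 0.566 (0.538 to 0.595). Bax (chr7:45461697-45466898, minus strand), the pore-forming effector on which such proteins act, was at 452 CPM (448 to 455) against 706 CPM (702 to 710.0), a ratio of 0.640 (0.633 to 0.646). Ratios as low as those of Bbc3 and Bax were held by 2.30% and 3.95% of the genes tested. Phlda3 (chr1:135766119-135769136, plus strand), an inhibitor of Akt at the membrane, was at 78.4 CPM (76.9 to 79.9) against 59.2 CPM (58.0 to 60.4), 1.32-fold higher (1.29 to 1.36); its log2 ratio of 0.40 was 0.11 with TMM and median of ratios and 0.24 in cells with 1.5 to 2.5% mitochondrial UMIs. Zmat3 (chr3:32334792-32366014, minus strand), an RNA-binding protein of splicing and mRNA turnover, was at 43.9 CPM (42.8 to 45.0) against 39.6 CPM (38.6 to 40.6); its log2 ratio of 0.15 turned to -0.14 under TMM or median-of-ratios scaling.

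Cells with 0 UMIs, after thinning to 10000 UMIs a cell, of GFP, the Zscan4 family, Gata6 and Dab2 were also compared between the libraries (596 positive-library and 3354 negative-library cells). In these cells Pmaip1 was at 18.0 CPM (16.2 to 19.96) against 7.26 CPM (6.82 to 7.73), which was 1.203 on the log2 scale. Ccng1 was at 128 against 73.9 CPM, Mdm2 at 110.2 against 71.4 CPM and Trp53inp1 at 74.7 against 47.9 CPM. The selection was by the thinned UMIs: over all their UMIs these cells still held GFP at 22.4 and 0.248 CPM and the Zscan4 family at 42.4 and 0.161 CPM in the positive and negative library. Trp53, by contrast, was at 287 CPM (280.2 to 295) and 294 CPM (291 to 297) in these cells, for a log2 ratio of -0.03. Bax at 546 against 723 CPM and Bbc3 at 21.9 against 30.3 CPM differed less than in the whole libraries. The mitochondrial share of these cells still differed, at a median of 2.45% and 1.61%. Among cells of either library with 1.5 to 2.5% mitochondrial UMIs, the log2 ratios were 1.65 for Pmaip1, 0.65 for Ccng1, 0.49 for Mdm2, 0.40 for Trp53inp1, -0.64 for Bax and -0.85 for Bbc3. Among cells in a shared window of the G2/M share of cycle-gene UMIs (0.55 to 0.70), they were 1.75 for Pmaip1, 0.82 for Ccng1, 0.71 for Mdm2 and 0.76 for Trp53inp1.

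Counted by cells, Pmaip1 was found in 24.4% of the 4402 GFP-positive and 7.06% of the 3824 GFP-negative cells with at least 10000 UMIs, each thinned to that number (46.5% and 21.1% unthinned). Among 12 genes of other tissues, used as a background, the highest thinned shares were those of Neurod1, at 5.88% and 6.51%, and the lowest were 0, so the negative-library share of Pmaip1 lay close to the highest of this background. The shares of Mdm2 were 62.4% and 46.9% (88.6% and 85.5% unthinned), those of Ccng1 67.9% and 47.1% (90.1% and 84.4%) and those of Bbc3 14.1% and 23.9% (33.0% and 59.7%). Cdkn1a was found in 34.6% and 34.2% of thinned cells (57.4% and 66.9% unthinned), a difference in favour of the negative library only before thinning. Its UMIs were more unevenly spread over cells in the positive library, with a variance-to-mean ratio of 2.41 against 1.74, at means of 0.6002 and 0.534 thinned UMIs. The ratio for Mdm2 was 2.13 against 1.69, but at unlike means of 1.29 and 0.744 UMIs, with which this ratio grows. A value of 1 is that of a Poisson count, and Zmat3 (1.06 and 1.10) and Bbc3 (1.17 and 1.19) lay near it.

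Within the positive library, cells were grouped by their thinned UMIs of the 9 Zscan4 family genes into 0, 1 to 2, 3 to 9, and 10 or more (1403, 1506, 825 and 668 cells). Pmaip1 was higher in each class than in the one before, at 19.7, 28.6, 41.6 and 61.3 CPM. Mdm2, at 110, 121, 125 and 156 CPM, and Trp53inp1, at 76.0, 79.7, 92.6 and 98.6 CPM, followed the same order over a narrower range. Counting intervals overlapped between the middle classes for Mdm2, and at the first and the last step for Trp53inp1. Trp53 and Bax ran the other way: Trp53 stood at 259, 247, 192 and 139 CPM and Bax at 498, 484, 392 and 313 CPM. Bbc3 was at 20.5, 17.6, 10.6 and 10.9 CPM, so its highest classes did not differ beyond their counting intervals. Cdkn1a had no steady order, at 57.9, 52.8, 53.3 and 66.4 CPM.

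**Figure D2:**
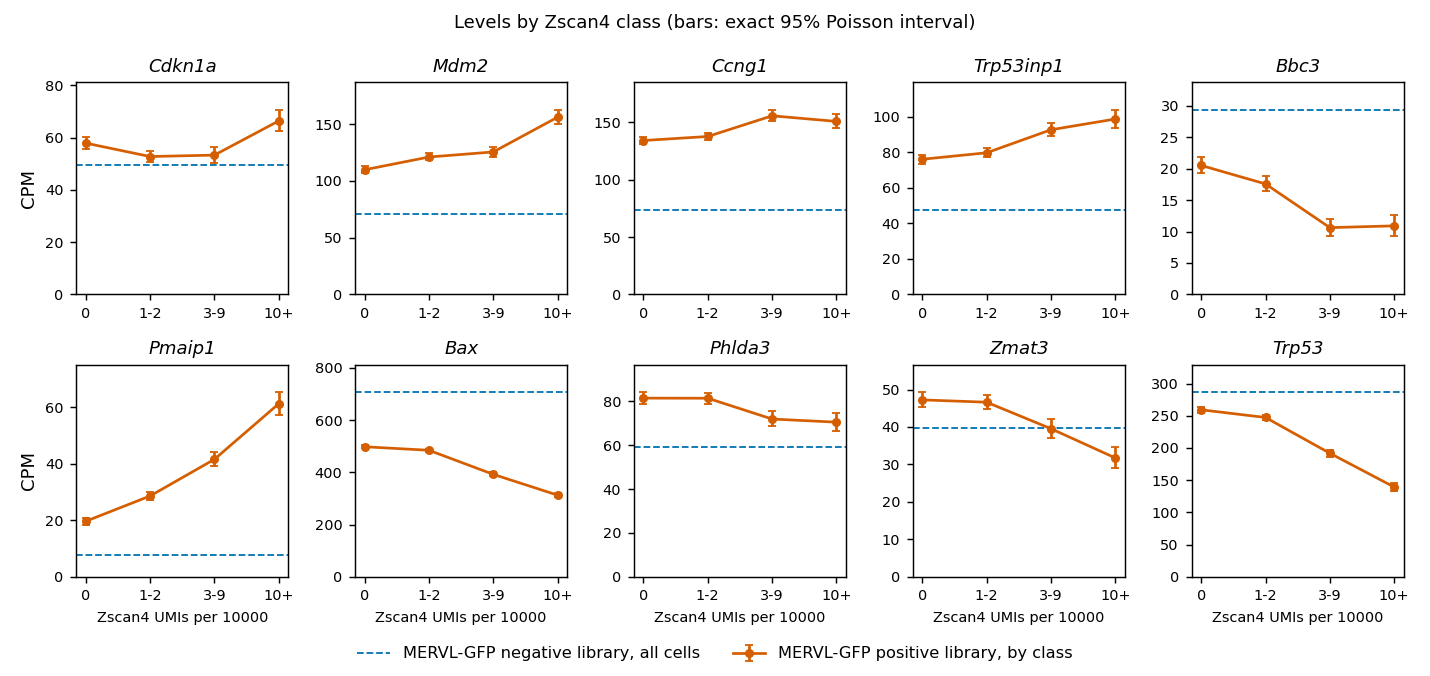
Levels of each gene (CPM, with 95% counting intervals) in the 4 Zscan4 classes of the GFP-positive library. From the class of 0 to that of 10 or more, Pmaip1 goes from 19.7 to 61.3 CPM, Trp53 from 259 to 139 CPM and Bax from 498 to 313 CPM.

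Between the classes of 10 or more and of 0, Pmaip1 was the only one of the 10 genes past 2-fold, with a ratio of 3.11 (2.84 to 3.41), and 0 were past 2-fold lower; of 8395 genes tested, 8.85% were higher and 3.66% lower. Trp53 passed 2-fold lower with high set at 20 or more Zscan4 UMIs (log2 -1.08) and with thinning to 5000 UMIs (-1.01). At 1.5-fold, 1 of the 10 was higher and 3 were lower, beside 15.2% and 14.8% of all genes tested. Mdm2 had a ratio of 1.42 (1.35 to 1.49), Trp53inp1 of 1.30 (1.22 to 1.38), Cdkn1a of 1.147 (1.07 to 1.23) and Ccng1 of 1.12 (1.07 to 1.18). On the log2 scale the difference of Cdkn1a changed sign among cells in the G2/M window. Trp53 had a ratio of 0.538 (0.513 to 0.563), Bbc3 of 0.532 (0.449 to 0.627), Bax of 0.628 (0.609 to 0.648) and Zmat3 of 0.672 (0.608 to 0.741), while Phlda3 was nearer to 1 at 0.865 (0.808 to 0.926). The median log2 ratio was -0.02 over the 10 genes and -0.10 over all genes tested. From the class of 0 to that of 10 or more, the thinned share of cells went from 16.1% to 40.7% for Pmaip1 and from 88.7% to 67.7% for Trp53. For Cdkn1a it went from 36.6% to 35.2%, against the direction of its CPM, so no order is read from it. Between the same classes, the median UMIs per cell went from 32825 to 20974.5, the mitochondrial share from 2.35% to 3.11%, the G2/M genes from 3839 to 4713 CPM and the sum of the pluripotency markers from 15798 to 9785 CPM. Most of that sum was 1 gene, Dppa5a (11499 of 14602 CPM in the whole library). Over the 10 pluripotency markers the median log2 ratio was -1.06, with 6 past 2-fold lower. Among cells with 20000 to 40000 UMIs the log2 ratios were 1.45 for Pmaip1 (1.59 in all cells), 0.38 for Mdm2 (0.50), 0.03 for Ccng1 (0.17), -0.65 for Bax (-0.67) and -0.81 for Trp53 (-0.89). The part of the pluripotency state in these differences was not tested.

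By reporter level, the positive library was grouped into cells with 0, 1 to 2, 3 to 5, and 6 or more thinned GFP UMIs (1694, 1319, 791 and 598 cells). Of the class of 0, 45.9% had a GFP UMI before thinning, so it holds cells with little GFP as well as cells without. Bbc3 was lower in each class than in the one before, at 20.8, 16.2, 11.4 and 9.67 CPM. The intervals of its highest classes overlapped, at 10.1 to 12.9 CPM for 3 to 5 and 8.17 to 11.4 CPM for 6 or more UMIs. Bbc3 was the only one of the 10 genes past 2-fold between the outer classes, at 2.15-fold lower, and 0 were past 2-fold higher. Of 8243 genes tested, 5.03% were higher and 2.07% lower. At 1.5-fold, 1 was higher and 1 lower, beside 8.37% and 10% of all genes tested. With the mean of each cell's CPM 4 were lower, for which no share of all genes by that scaling is given. The Bbc3 call was lost with TMM (log2 -0.94), with median of ratios (-0.94), with high set at 3 or more GFP UMIs (-0.89) and in the G2/M window (-0.80). Under TMM the calls over all genes were 464 higher and 109 lower, against 415 and 171 by CPM. Pmaip1 stood at 24.3, 32.6, 39.0 and 44.5 CPM, a ratio of 1.83 (1.67 to 2.01) that was smaller than over the Zscan4 classes. Trp53 was at 258, 227, 199 and 173 CPM, Bax at 508, 448, 397 and 346 CPM and Zmat3 at 48.8, 44.3, 37.9 and 33.3 CPM. Ccng1 (140.6, 139, 145 and 142 CPM), Mdm2 (122, 119, 121 and 132 CPM) and Trp53inp1 (79.8, 84.2, 85.5 and 86.3 CPM) hardly varied with GFP. By CPM each of these genes was at least 1.5-fold higher in the positive than in the negative library, but with TMM Mdm2 and Trp53inp1 were not. Cdkn1a was highest in the class of 0, at 62.2, 53.2, 48.5 and 53.5 CPM, and Phlda3 likewise, at 86.5, 75.7, 72.2 and 66.1 CPM. The median log2 ratio was -0.30 over the 10 genes and -0.12 over all genes tested. From the class of 0 to that of 6 or more, the median UMIs per cell went from 32625.5 to 23843, the G2/M genes from 3923 to 4442 CPM, the sum of the pluripotency markers from 15124 to 12794 CPM and the Zscan4 family from 175 to 1128 CPM. Over the 10 pluripotency markers the median log2 ratio was -0.79, with 3 past 2-fold lower. The part of these features in the values was not tested beyond the crossed classes of Zscan4 and GFP and the restricted sets of cells.

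Both measures were then crossed, by thinned UMIs. Pmaip1 was at 21.5 CPM (20.2 to 22.8) in cells with 0 to 2 Zscan4 UMIs and 0 GFP UMIs, and at 27.1 CPM (25.7 to 28.7) in those with 1 or more GFP UMIs. It was at 44.0 CPM (39.3 to 49.2) in the 239 cells with 3 or more Zscan4 and 0 GFP UMIs, which held 60.7 GFP CPM before thinning, and at 50.4 CPM (48.0 to 52.9) in those with 3 or more Zscan4 and 1 or more GFP UMIs. At these limits of 3 Zscan4 and 1 GFP UMIs, which are not equivalent, the Zscan4 groups lay further apart than the GFP groups. Cdkn1a was at 62.7 and 47.5 CPM at 0 and at 1 or more GFP UMIs among the cells low in Zscan4, but at 58.7 and 58.3 CPM among those with 3 or more. Bbc3 was lower at 1 or more GFP UMIs in both Zscan4 groups, at 21.9 and 15.97 CPM and at 13.1 and 10.2 CPM, although the intervals of the latter pair overlapped (10.6 to 16.1 and 9.15 to 11.4). Bax, at 526, 454, 383 and 356 CPM, and Trp53, at 269, 237, 187 and 168 CPM in the same order of classes, were lower along both measures.

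Gata6 and Dab2 are markers of primitive endoderm, the extraembryonic lineage that stem cell cultures produce at low frequency. Cells were grouped by their summed thinned UMIs into 0, 1, 2 to 4, and 5 or more. The positive library held 3274, 529, 198 and 401 such cells, and the negative library 3374, 211 and 191 in the classes 0, 1 and 5 or more, with under 50 in the remaining class, which was left out. In the class of 5 or more the 19 endoderm markers summed to 6440 CPM in the positive and 4886 CPM in the negative library, against 429 and 199 CPM in the class of 0, and 16 markers were past 2-fold higher in each library. Gata6 and Dab2 are among these markers in the sums and counts, and their own rise is fixed by the grouping. In the class of 5 or more they stood at 532 and 731 CPM in the positive and at 682 and 327 CPM in the negative library. Bax and Trp53 were lower in these cells in both libraries. Bax stood at 482, 428, 353 and 295 CPM over the positive classes and at 723, 716 and 442 CPM over the negative ones, with the same ratio of 0.612 between the outer classes (0.592 to 0.633 and 0.591 to 0.633). Trp53 stood at 245, 218, 170 and 146 CPM, and at 294, 294 and 163 CPM, with ratios of 0.596 (0.568 to 0.624) and 0.556 (0.526 to 0.587).

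**Figure D3:**
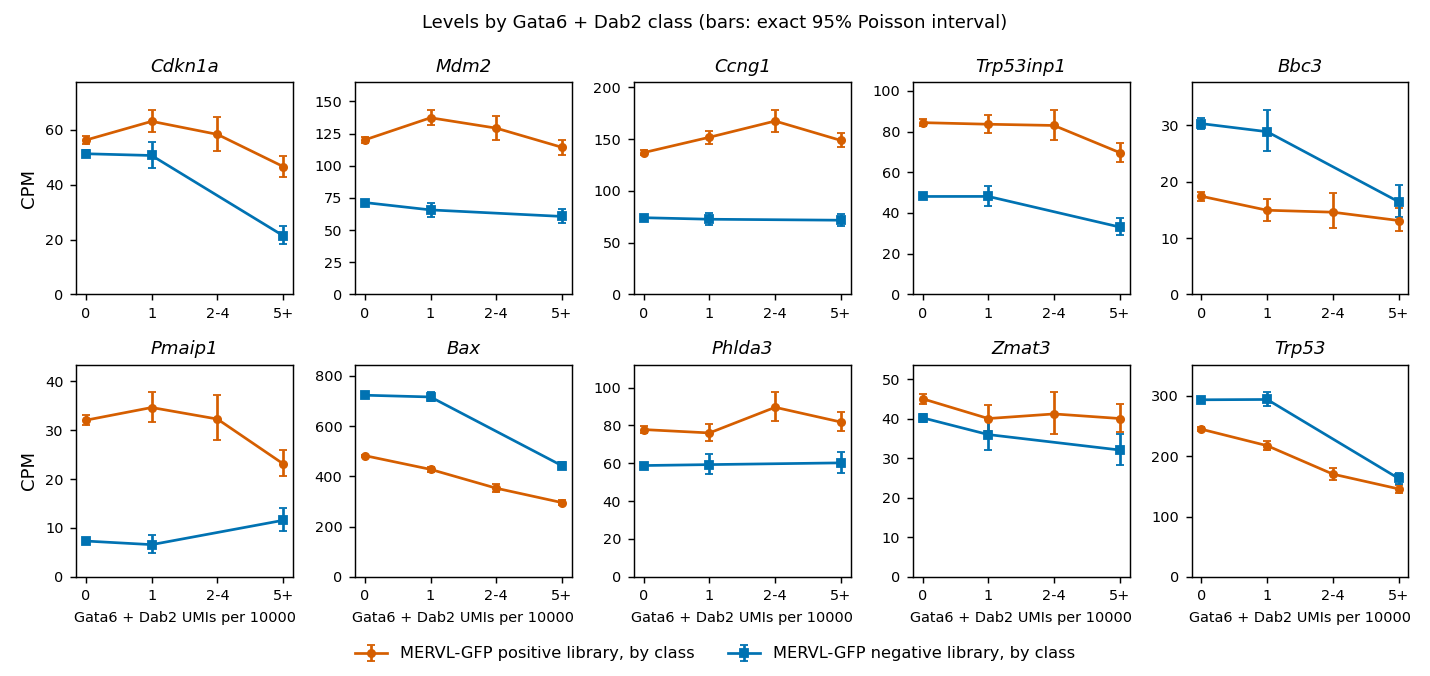
Levels of each gene (CPM, with 95% counting intervals) by summed Gata6 and Dab2 UMIs in both libraries; the negative-library class of 2 to 4, with under 50 cells, is not drawn. Bax and Trp53 lie lowest in the class of 5 or more in both libraries, whereas Cdkn1a goes from 51.2 to 21.4 CPM in the negative library and from 56.2 to 46.6 CPM in the positive one.

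Past 2-fold between the outer classes, 0 of the 10 genes were higher and 0 lower in the positive library, where 5.91% and 6.07% of 8241 genes were. In the negative library 0 were higher and 1 was lower, where 6.59% and 3.73% of 7645 genes were. At 1.5-fold, 0 of the 10 were higher and 2 lower in the positive library, beside 11.9% and 13.8% of all genes, and 1 was higher and 4 lower in the negative library, beside 14.1% and 8.38%. With TMM or median of ratios the counts in the negative library were 0 higher and 5 lower, for which no share of all genes by those scalings is given. Past 2-fold in the negative library were also Bbc3 with thinning to 5000 UMIs (log2 -1.02) and Pmaip1 in cells with 20000 to 40000 UMIs (1.16). The gene past 2-fold in all cells was Cdkn1a, at 51.2, 50.6 and 21.4 CPM, a ratio of 0.418 (0.357 to 0.486); with high set at 2 or more UMIs its log2 ratio was -0.86 instead of -1.22. In the positive library Cdkn1a was at 56.2, 63.0, 58.3 and 46.6 CPM, a ratio of 0.829 (0.760 to 0.902). Bbc3 had ratios of 0.753 (0.639 to 0.883) and 0.543 (0.453 to 0.646) in the positive and negative library. Pmaip1 was lower in the high class of the positive library, at 32.1 and 23.1 CPM in the outer classes, and higher in that of the negative library, at 7.33 and 11.6 CPM. Mdm2 (120.1 and 114 CPM; 71.4 and 60.6 CPM), Ccng1 (137 and 149 CPM; 74.1 and 71.7 CPM) and Phlda3 (77.8 and 81.8 CPM; 58.8 and 60.2 CPM) had ratios between 0.849 and 1.09 over the outer classes of the libraries. Trp53inp1, at 84.4 and 69.6 CPM and at 48.1 and 33.1 CPM, and Zmat3, at 45.1 and 40.1 CPM and at 40.3 and 32.1 CPM, were lower in the high class; in cells with 1.5 to 2.5% mitochondrial UMIs the log2 ratio of Zmat3 in the negative library was 0.019. The median log2 ratio over the 10 genes was -0.27 in the positive and -0.42 in the negative library, with -0.05 and 0.03 over all genes tested. The S-phase genes summed to 2232 and 1624 CPM in the outer classes of the positive library and to 2488 and 1834 CPM in those of the negative one. The pluripotency markers summed to 15336 and 10782 CPM and to 14411 and 10664 CPM, and the Zscan4 family in the positive library to 465 and 172 CPM. Dppa5a made up most of the pluripotency sum (11499 of 14602 and 10359 of 14200 CPM in the whole libraries). Over the 10 pluripotency markers the median log2 ratio was -1.78 in the positive and -1.09 in the negative library. Past 2-fold lower were 7 and 6 of them, and 1 had a ratio above 0, in the positive library. The part of these lists in the values was not tested, beyond the cells grouped by Zscan4 as well.

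The endoderm and Zscan4 classes overlapped in 171 cells of the positive library with 3 or more Zscan4 UMIs and 2 or more of Gata6 and Dab2. Pmaip1 was at 52.3 CPM (49.9 to 54.8) in Zscan4-positive cells with at most 1 UMI of Gata6 and Dab2 and at 26.6 CPM (22.1 to 31.7) in these 171 cells, close to the 23.98 CPM (22.9 to 25.1) and 25.9 CPM (23.3 to 28.7) of the classes low in Zscan4 with at most 1 and with 2 or more UMIs of Gata6 and Dab2. Ccng1 was highest in the 171 cells, at 180.3 CPM (168 to 193), against 134, 146 and 150.1 CPM in the other classes. Cdkn1a was lowest there, at 40.5 CPM, against 55.5, 53.6 and 60.8 CPM. Bax was also lowest there, at 260.0 CPM (246 to 275), against 518, 332 and 375 CPM.

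**Figure D4:**
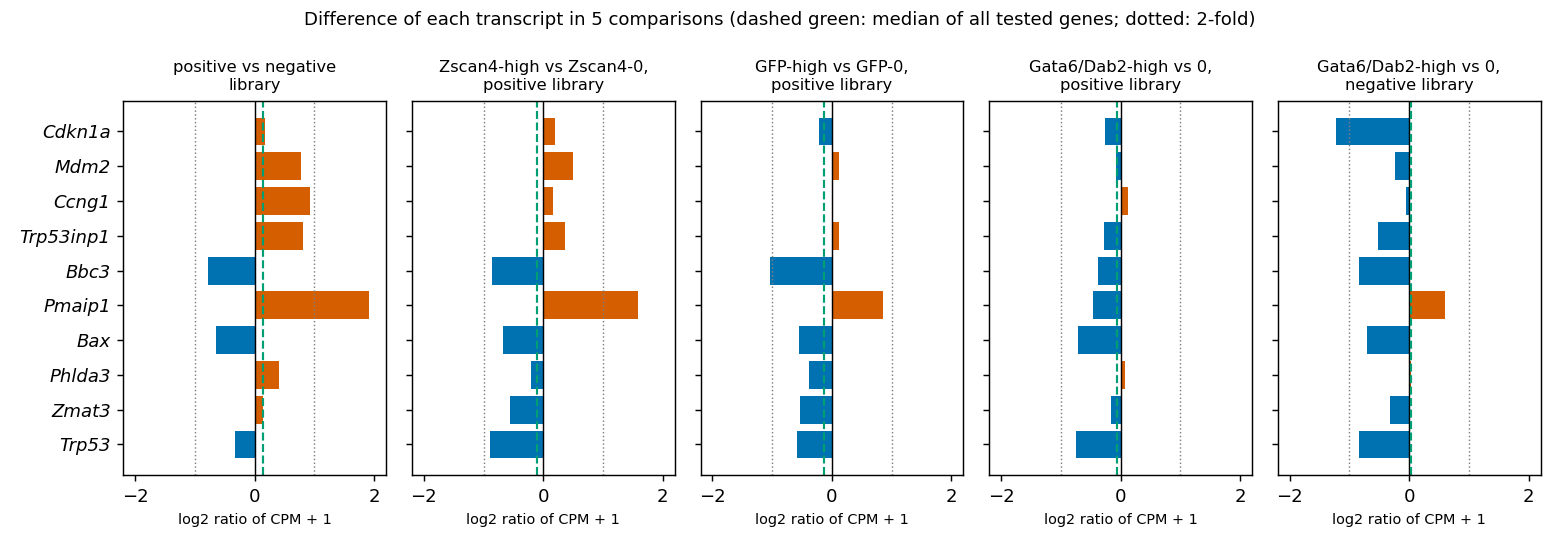
Log2 ratio of each gene, log2(CPM + 1) scale, in the 5 comparisons: between the libraries, by Zscan4, by GFP, and by Gata6 and Dab2 in each library. Pmaip1 is furthest to the higher side between the libraries (1.92) and by Zscan4 (1.59), while Bax, Trp53 and Bbc3 are on the lower side in all 5 comparisons.

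Across single cells the genes were only weakly related. Over the 45 pairs of the 10 genes, Spearman correlations of thinned UMIs ranged from -0.08 to 0.25 in 4402 positive-library cells and from -0.03 to 0.20 in 3824 negative-library cells, with a median of 0.08 in each. The highest were Ccng1 with Trp53inp1 (0.25) and Mdm2 with Ccng1 (0.23) in the positive library. Such sparse counts give low correlations in any case, and cells of a library share depth and preparation. Levels were also compared over 10 classes of Zscan4 by Gata6 and Dab2, 8 of the positive and 2 of the negative library. Over these classes Bax and Trp53 had a Pearson r of 0.95, and Mdm2 had an r of 0.94 with Trp53inp1, 0.90 with Ccng1 and 0.90 with Pmaip1. The r of Bbc3 with Pmaip1 and that of Ccng1 with Bax were both -0.75. These are descriptions over classes that share 2 libraries and in which depth and Zscan4 level vary together. Among 9111 genes compared, those most like Pmaip1 over the classes were Eif4g2, Gtf2f1 and Wbp4 (r of 0.98 each), and those most like Bax were Nedd4, Smarcad1 and Msc (0.99 each). The genes most like Cdkn1a, Gtpbp10 (0.93), Gtse1 (0.91) and Ypel5 (0.91), reached lower values. For Trp53 they were Sfrp1 (0.99), Csnk1a1 (0.99) and Ifitm2 (0.99). For Mdm2 they were mt-Rnr1 (0.99), Stim1 (0.99) and Fthl17f (0.98), and for Ccng1 Ap2a2 (0.99), Tex2 (0.99) and Platr31 (0.98). Those of Trp53inp1 were Bcorl1 (0.98), Acad11 (0.98) and Hmgn3 (0.98), and those of Bbc3 were Lrmp (0.96), Pisd (0.96) and Prkra (0.95). Phlda3 was most like Igf2r (0.96), Ankrd49 (0.95) and Sptan1 (0.94), and Zmat3 most like Slc9a8 (0.95), Hipk2 (0.94) and Commd10 (0.94). All of these were picked as the highest of 9111 values over only 10 classes. Such a choice gives a high r in any case, so no relation between the genes is read from it.

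Other genes of the pathway were described from lists chosen with earlier results of these data known. Of 45 further p53 targets, 30 passed the level minimum between the libraries, 3 were higher and 1 was lower, beside 7.01% and 0.995% of all genes tested. Their median log2 ratio was 0.42, beside 0.14 over all genes tested. The higher ones were Ddit4l, a relative of the mTORC1 inhibitor REDD1, at 144 and 9.9996 CPM, the antiproliferative gene Btg2 at 70.0 and 26.3 CPM and the kinase gene Plk2 at 51.4 and 20.9 CPM. The lower one was the non-coding RNA Pvt1, at 4.40 and 10.4 CPM. None of the 22 measured p53 regulators, 7 Bcl2 family genes or 4 Cdk inhibitor genes was past 2-fold, and of the p53 family (Trp63 and Trp73) 0 of 2 passed the level minimum.

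By Zscan4, 31 further targets were measured, of which 4 were higher and 0 lower, beside 8.85% and 3.66% of all genes tested. Of the 4, those with the largest ratios were Ddit4l, Btg2 and Plk2. Ddit4l was at 348 CPM in the high and 65.4 CPM in the 0 class, Btg2 at 140.4 and 48.8 CPM and Plk2 at 103 and 42.0 CPM. Of 23 regulators, the mitotic kinase gene Aurka was higher, at 121 and 59.6 CPM, and Mdm4, the Mdm2 relative that binds and inhibits p53, was lower, at 59.4 and 122.7 CPM. By GFP, 2 of 31 further targets were higher and 0 lower, beside 5.03% and 2.07% of all genes tested. They were Ddit4l at 427 and 60.5 CPM and the REDD1 gene Ddit4 at 58.6 and 26.8 CPM. In the high Gata6 and Dab2 class of the positive library 2 of 31 were higher, the lysosomal gene Dram1 at 14.4 and 1.18 CPM and Ddit4l at 231 and 112 CPM, and 2 were lower, Plk3 at 8.71 and 25.8 CPM and Ddit4 at 12.7 and 35.0 CPM, beside 5.91% and 6.07% of all genes tested. In that of the negative library 1 of 26 was higher, Dram1 at 25.8 and 0.610 CPM, and 1 was lower, Ddit4 at 6.10 and 18.6 CPM, beside 6.59% and 3.73%. Of 4 measured Cdk inhibitor genes, Cdkn1c was lower in the high class of both libraries, at 9.57 and 40.2 CPM and at 14.9 and 52.8 CPM. The median log2 ratio of the 4 was above 0, at 0.32 in the positive and 0.43 in the negative library. Of 23 regulators, Cdkn2a, whose product p19ARF restrains Mdm2, was lower in the high class of the positive library, at 24.9 and 54.9 CPM. Of 7 Bcl2 family genes, the BH3-only gene Bad was higher in that of the negative library, at 35.0 and 16.03 CPM, where the median log2 ratio of the 7 was -0.40. No other Cdk inhibitor, regulator or Bcl2 family gene was past 2-fold by Gata6 and Dab2.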

How the data were processed

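For each library the deposited matrix holds raw counts, as whole numbers, of 55415 features (55414 Ensembl genes and GFP) in every cell. They were taken to be UMIs from the cell barcodes and the single-cell source in the labels; the extraction text of the labels describes a kit for total RNA and does not say how cells were captured. The submitters' processing notes name FastQC 0.11.2, Trim Galore 0.6.4, STAR 2.7.6a and mm10; cell calling and strand use in counting are not given in the sources used here. The libraries share 3 barcodes.

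Cells with at least 1000 UMIs, 500 genes and at most 20% mitochondrial UMIs were kept. No doublet caller was run; an alternative left out cells above 2 times the median UMIs. UMIs were summed per library or class and scaled to CPM, log2 ratios use CPM + 1, and CPM are not per length, so levels of different genes are not ranked. Intervals are exact Poisson for levels, exact conditional for ratios and Clopper-Pearson for shares, at 95%. For classes and shares, cells were thinned without replacement to 10000 UMIs; 194 and 8 shallower cells of the positive and negative library were not used there. Gene coordinates are those of GENCODE M21. Bax overlaps Gm45808 on its strand, which had 0 UMIs. Cdkn1a overlaps AC167363.2 on the opposite strand over 1046 bases, and without knowing the strand use their reads cannot be told apart. The pseudogene Trp53-ps had 0.557 and 0.703 CPM.

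The 10 genes and all lists were chosen with earlier results of these data known. Named genes are the 10 genes, up to 3 genes per list and direction with the largest ratio past the size rule, and the 3 genes per member most alike. Alternatives changed the cell filter, depth, scaling, pseudocount, fold, level minimum, thinning and class limits; the restrictions to cells low for or without the markers, to a mitochondrial window and to a G2/M window, and the allowance of 1 base off in the full site, were chosen after seeing the data. Tested on simulated data of the comparison between the libraries, with 200 of 55415 genes changed, the size rule took 100% of genes at 3-fold and 4-fold, 0% at 1.2-fold and 1.5-fold, and made 0 false calls. The simulated counts held counting error only, at the depth of whole libraries, where such outcomes are nearly fixed in advance. Spread between cultures or cells and the smaller classes were not simulated, so the reliability of the rule for them was not tested. TMM factors came from edgeR 4.0.16 in R 4.3.3; other steps used scipy 1.17.1, pandas 2.3.3, numpy 2.4.6 and matplotlib 3.10.9 in Python 3.11.15.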

Additional observations from a re-analysis of the deposited data

Results flagged for a closer look

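Pmaip1 went in opposite directions with Gata6 and Dab2 in the libraries: the log2 ratio of cells with 5 or more UMIs of both genes to cells with 0 was -0.45 in the positive and 0.59 in the negative library. The difference between the libraries was not tested, since each is 1 sample, and the negative-library value rests on 93 Pmaip1 UMIs in 191 cells; among cells with 20000 to 40000 UMIs that value was 1.16. In the crossed classes of the positive library, Pmaip1 was at 23.98 and 25.9 CPM with at most 1 and with 2 or more UMIs of Gata6 and Dab2 among cells low in Zscan4, and at 52.3 and 26.6 CPM among cells with 3 or more Zscan4 UMIs.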

How the results depend on the processing

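No paired analysis was possible because there was 1 library per group; for the same reason no replicate could be left out. Of 130 values of the 10 genes between the libraries, 58 moved by less than their interval, 65 moved further and 7 changed sign; sign changes were counted only where the interval of the value in all cells excluded 0. Cdkn1a changed sign with TMM (-0.12), median of ratios (-0.12), cells of 20000 to 40000 UMIs (-0.0070) and the mitochondrial window (-0.046), and Zmat3 with TMM (-0.14), median of ratios (-0.14) and the mitochondrial window (-0.044). In the G2/M window Cdkn1a changed sign by Zscan4 (-0.014), and by GFP so did Mdm2 (-0.036) and Trp53inp1 (-0.11); Trp53inp1 by GFP was -5.3e-05 with thinning to 5000 UMIs. Zmat3 by Gata6 and Dab2 in the negative library was 0.019 in the mitochondrial window. Where the interval includes 0, the scalings also gave either sign, for Ccng1 by GFP (-0.0093 to 0.11) and for Mdm2 and Phlda3 by Gata6 and Dab2 in the positive and negative library (-0.17 to 0.02 and -0.05 to 0.03). The median over the 10 genes between the libraries (0.28) changed sign with TMM (-0.0050) and median of ratios (-0.0031), and was 0.20 in the depth window of 20000 to 40000 UMIs, 0.099 in the mitochondrial and 0.20 in the G2/M window, 0.35 in cells low for Zscan4 and for Gata6 and Dab2 and 0.39 in cells at 0 of all markers after thinning. By Zscan4 it was -0.12 in the depth, 0.079 in the mitochondrial and -0.25 in the G2/M window, and by Gata6 and Dab2 in the positive library -0.40 in the depth and -0.13 in the mitochondrial window. It ranged from -0.39 to -0.20 by GFP and from -0.50 to -0.31 by Gata6 and Dab2 in the negative library. Pmaip1 was past 2-fold higher in 13 of 13 alternatives between the libraries (log2 1.203 to 2.04) and in 15 of 15 by Zscan4 (1.44 to 1.73), Bbc3 past 2-fold lower in 9 of 13 by GFP and Cdkn1a in 12 of 13 by Gata6 and Dab2 in the negative library.

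Counts over all genes depended on the fold and the level minimum. At 1.5-fold they were 1418 higher and 393 lower between the libraries, 1272 and 1244 by Zscan4, 690 and 827 by GFP, and 979 and 1139 (positive) and 1075 and 641 (negative) by Gata6 and Dab2. At 4-fold they were 241 and 1, 328 and 9, 256 and 3, 139 and 101, and 163 and 44 in the same order. With a minimum of 1 CPM they were 1204 and 593 by Zscan4, 675 and 377 by GFP, and 740 and 1141 and 821 and 627 by Gata6 and Dab2, with 1243 higher between the libraries. Lower calls between the libraries were 260 with TMM and 258 with median of ratios, and by GFP 109 and 112. The causes of these shifts were not tested. Some values rest on few UMIs. In the high Gata6 and Dab2 class of the negative library these were 93 for Pmaip1, 132 for Bbc3 and 49 for Ddit4. Bbc3 had 92 in the cells with 3 or more Zscan4 and 0 GFP UMIs.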
